A study of Mus musculus with 16 samples.

Results

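The liver transcriptome was compared between mice given a high and mice given a low concentration of N-glycolylneuraminic acid (Neu5Gc), a sialic acid, in their drinking water. The high group was the treatment, labelled Treatment 1 to 3, at 0.2535 mg/ml, and the low group was the control, labelled Control 1 to 3, at 0.0127 mg/ml. Members were chosen by tissue and sample title, which gave 6 liver libraries, 3 high and 3 low, of 16 in the series. The other 10 libraries were colorectum and entered 1 alternative fit only. All mice were 8-week-old males carrying the Min allele of Apc (APCMin/+), which causes intestinal adenomas, and drank the Neu5Gc water for 14 days. No group without Neu5Gc was sampled, so every comparison is between 2 concentrations. The design text of the series gives 6 control and 4 treated mice, which is not what the sample titles give, and groups follow the titles. The labels do not say whether each library is a separate animal, so p-values measure only the spread between these samples, which may be technical. The labels describe RNA extraction for the colorectum and do not describe it for the liver. The time of day at which livers were taken is not given in the sources used here.

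Much of liver transcription follows the circadian clock, a loop in which BMAL1 (gene Arntl) with CLOCK or NPAS2 activates the Per, Cry, Nr1d and Dbp families through E-box motifs. PER and CRY proteins then repress that activation, and the REV-ERB receptors (Nr1d1, Nr1d2) repress Arntl, which ROR receptors activate. Many liver genes of lipid, bile acid and drug metabolism follow this loop. Mice make their own Neu5Gc with the enzyme Cmah, which converts the activated form of Neu5Ac.

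Of 15522 genes tested, 1004 (6.47%) differed between high and low livers, 489 (3.15%) higher and 515 (3.32%) lower with high Neu5Gc, as the plot of all genes tested shows. A gene is called here at an adjusted p under 0.05 from edgeR's quasi-likelihood test with Benjamini-Hochberg adjustment. Of the called genes, 315 (2.03% of those tested) differed by at least 2-fold, 190 higher (1.22%) and 125 lower (0.805%). Values per library did not overlap between the groups for 4444 genes (28.6%), with the high libraries above for 14.5% and below for 14.1%. With the replicate number of the labels as a block, 630 genes (4.06%) were called, 306 higher (1.97%) and 324 lower (2.09%). Called in the fit of all 6 libraries and in each of the 6 fits without 1 library were 296 genes (1.91%), 150 higher (0.966%) and 146 lower (0.941%). The median log2 fold change over all genes tested was 0.003. On log2(TPM + 1), whose values in each library sum to a fixed total, that median was -0.16 and the split was 158 higher against 1467 lower. After the TPM values were scaled with TMM (trimmed mean of M values) factors it was 317 higher (2.44% of 12978 tested) against 419 lower (3.23%).

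**Figure D1:**
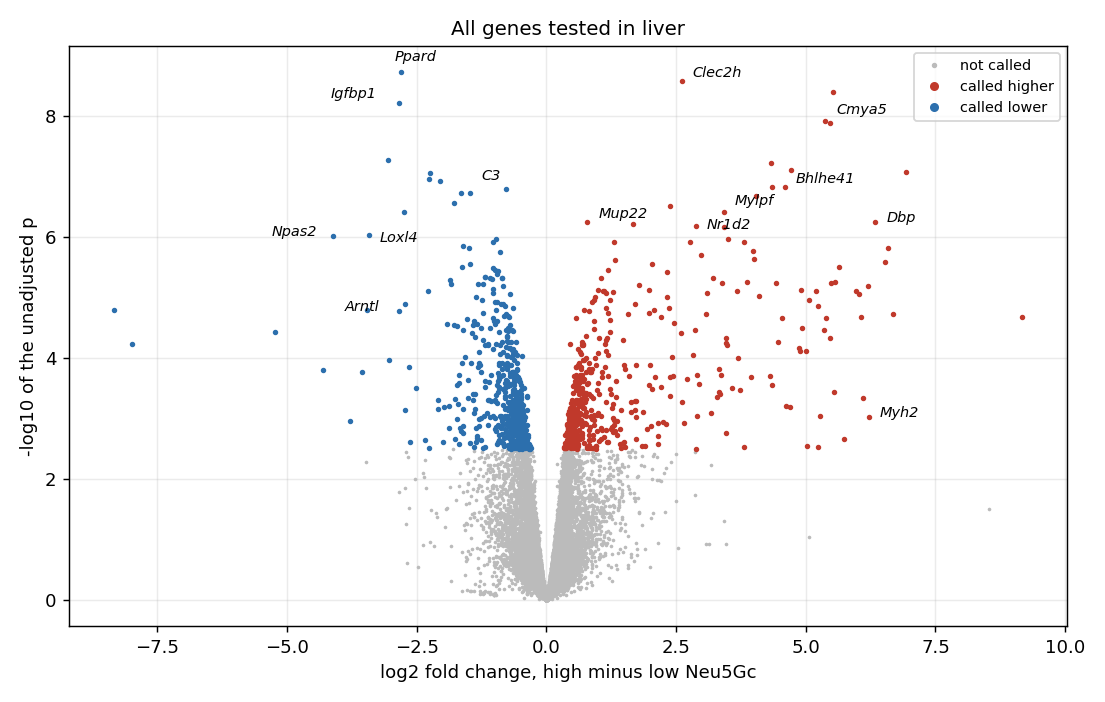
Each point is 1 of 15522 genes, with the log2 fold change, high minus low Neu5Gc, on the horizontal axis and the negative log10 of the unadjusted p on the vertical axis. Genes called higher are red and genes called lower blue. Clec2h and Ppard stand near the top, and Dbp and Myh2 far to the right, with log2 fold changes of 6.34 and 6.22.

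Total estimated counts were 68835890, 85116571 and 86112726 in the high libraries and 55887830, 53976363 and 47511128 in the low libraries, so depths did not overlap, and thinned to 1 depth the comparison called 1013 genes. The 10 most abundant genes took 23.9 to 24.9% of the counts in the high libraries, against 18.3 to 20.5% in the low libraries. Levels below are counts scaled to a common library size with TMM factors (normalised CPM), as mean ± SD of 3 libraries where no library is named. A log2 fold change is high minus low, with its standard error (SE). A gene named below as called was also called with the replicate block, without each library in turn and without both libraries numbered 1, unless a value says otherwise. This rule does not cover the fit of all 16 libraries, in which 50 of the 105 called genes named lost their call.

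The 2 libraries numbered 1 stood apart. An 18-gene list of pancreatic acinar genes summed to 4373, 31.8 and 60.5 normalised CPM in the high libraries, against 10342, 36.6 and 40.2 in the low libraries. High library 1 and low library 1 thus held RNA of pancreatic type, and none of the 17 tested members was called. The other 4 libraries lay between 31.8 and 60.5. Without both libraries numbered 1, 365 genes (2.31% of 15798 tested) were called, 185 higher (1.17%) and 180 lower (1.14%), and 311 were among the 1004. Hepatocyte markers (Alb, Apoa1, Ttr, Serpina1a, Cps1 and Hnf4a) summed to between 77449 and 94027 in the high libraries and between 72383 and 91317 in the low libraries, and were high in all 6. Of the marker sets of 10 cell types, no member was at 0 in all 6 libraries. The plot of summed markers shows 2 sets far from the rest in only some libraries or 1 group, those of the acinar pancreas and of skeletal muscle. Adipocyte markers, at low levels, also varied between libraries. They summed to 4.36, 2.45 and 11.8 in the high libraries and to 3.06, 2.69 and 0.537 in the low libraries, with overlapping groups.

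**Figure D2:**
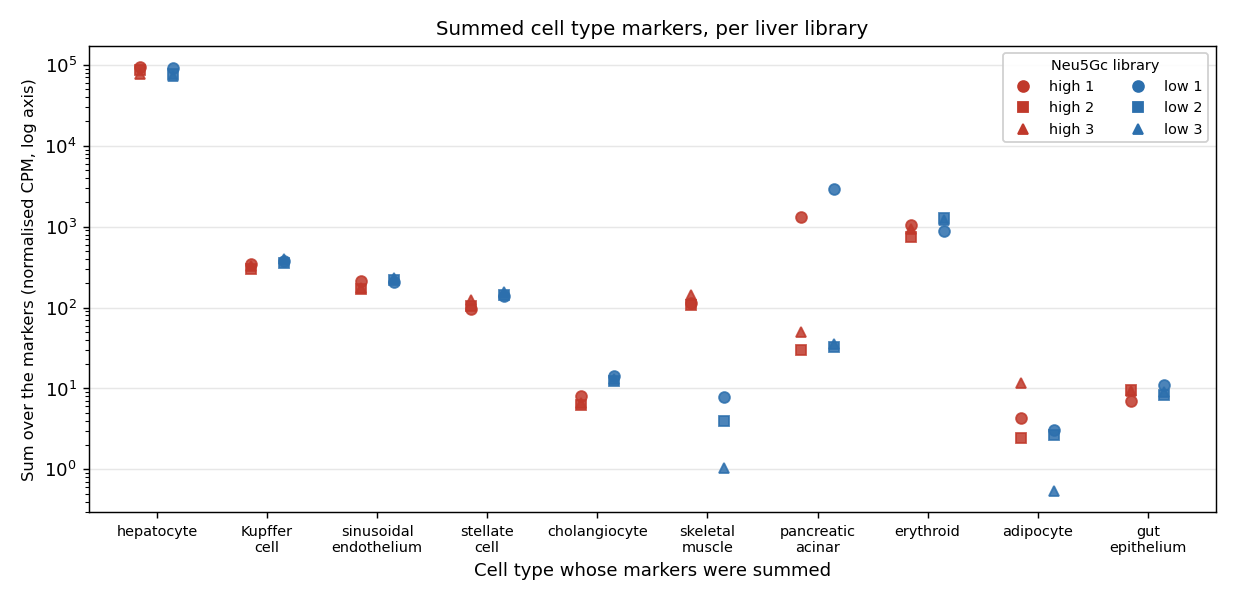
Summed normalised CPM (log axis) of the defining markers of 10 cell types, with 1 point per library, high libraries red and left of low libraries in blue, and the marker shape giving the replicate number. Acinar markers stand at 1314 in high library 1 and 2906 in low library 1, and at 49.5 or less in the other 4. Skeletal muscle markers lie at 107 to 143 in the high libraries and at 1.05 to 7.91 in the low libraries.

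After skeletal muscle, the core clock was the list with the highest share of called members, 68.4%. The lists were chosen with earlier results of these data known, so this ranking is a description. Of the 19 core clock members, all tested, 13 were called, 9 higher and 4 lower, against 6.47% of all genes. The median log2 fold change of the 19 was 1.06, against 0.003 for all genes. The block also called 13, 8 higher and 5 lower, and without both libraries numbered 1 the count was 10, 6 higher and 4 lower. Arntl and Npas2 of the activating arm were lower, as were Cry1 and Nfil3. The REV-ERB genes, the PAR bZIP (D-box binding) genes, Per3, Ciart, Bhlhe40 and Bhlhe41 were higher. The time of day of collection is not given for either group. Whether the clock and clock output differences go with concentration or with collection time was therefore not tested.

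In the activating arm, Arntl (ENSMUSG00000055116) was at 2.55, 3.86 and 6.25 normalised CPM in high livers and at 30.7, 31.5 and 28.5 in low livers. Every high library was thus below every low library (log2 fold change -2.84, SE 0.30, adjusted p = 0.00226). Npas2, the partner that can replace CLOCK, was at 0.332, 0.265 and 0.758 in high livers, against 8.52, 8.38 and 6.79 in low livers (log2 fold change -4.12, SE 0.35, adjusted p = 5.0e-04). Clock itself averaged 49.0 ± 4.25 in high and 52.6 ± 7.46 in low livers, with overlapping libraries, and did not pass (adjusted p = 0.677).

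The REV-ERB genes, whose products repress Arntl, were higher. Nr1d1 was at 93.7, 92.8 and 82.9 normalised CPM in high livers, against 6.07, 10.5 and 19.3 in low livers (log2 fold change 2.91, SE 0.44, adjusted p = 0.0255). The groups were far apart, but the low libraries were spread widely, and the call was lost with the block (adjusted p = 0.0759). It was also lost without any 1 high library or without low library 2 (adjusted p = 0.0732 to 0.112). Nr1d2 was at 112, 101 and 76.0 in high livers, against 9.42, 15.4 and 14.1 in low livers (log2 fold change 2.89, SE 0.22, adjusted p = 3.7e-04). Rora, of the ROR family that activates Arntl, averaged 54.3 ± 6.86 in high and 51.6 ± 16.9 in low livers (adjusted p = 0.886).

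Among the repressors, members of 1 family moved differently. Per3 was at 33.8, 21.1 and 13.8 normalised CPM in high livers, against 1.53, 3.18 and 1.91 in low livers (log2 fold change 3.37, SE 0.43, adjusted p = 0.0103). Without low library 3 its adjusted p was 0.0825. Per1 was at 19.0, 17.3 and 4.08 in high livers and at 4.41, 4.43 and 6.13 in low livers, so that high library 3 was below every low library (adjusted p = 0.253, and 0.00168 without high library 3). Per2 overlapped throughout, at 29.6, 14.6 and 13.7 in high and 19.2, 16.4 and 29.8 in low livers (adjusted p = 0.829). Cry1 fell to 4.78, 4.20 and 6.74 in high livers, against 21.3, 19.6 and 13.1 in low livers (log2 fold change -1.78, SE 0.23, adjusted p = 0.00304). Cry2 averaged 25.5 ± 2.67 in high and 19.8 ± 3.74 in low livers (adjusted p = 0.18). The transcriptional repressor Bhlhe41 was at 5.73, 4.90 and 2.96 in high livers, against 0.24, 0.14 and 0.179 in low livers (log2 fold change 4.59, SE 0.34, adjusted p = 1.5e-04). Its paralog Bhlhe40 averaged 76.0 ± 27.6 in high and 36.6 ± 2.58 in low livers (log2 fold change 1.06, adjusted p = 0.0402). That call was lost without high library 1 or any 1 low library (adjusted p = 0.0883 to 0.162) and without both libraries numbered 1 (0.183). Ciart, which represses BMAL1, was at 5.70, 4.31 and 1.32 in high livers, against 0.313, 0.471 and 0.338 in low livers (log2 fold change 3.32, SE 0.55, adjusted p = 0.015). Its adjusted p was 0.0589 to 0.0995 without any 1 low library and 0.0953 without both libraries numbered 1.

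The PAR bZIP factors, activators that bind D-boxes, were all higher, and their competitor Nfil3 was lower. Dbp (ENSMUSG00000059824) showed the largest rise among the genes the naming rule covers, at 92.6, 62.6 and 46.8 normalised CPM in high livers, against 0.774, 1.1 and 0.597 in low livers. The lowest high library was thus far above the highest low library (log2 fold change 6.34, SE 0.36, adjusted p = 3.5e-04). Per length, Dbp averaged 50.3 TPM (a level scaled by gene length) in high and 0.701 TPM in low livers. Tef was at 206, 160.1 and 131 normalised CPM in high livers, against 21.8, 33.8 and 14.8 in low livers (log2 fold change 2.82, SE 0.34, adjusted p = 0.00637). The adjusted p of Tef was 0.0845 without both libraries numbered 1. Hlf averaged 42.5 ± 3.28 in high and 19.8 ± 2.99 in low livers (log2 fold change 1.10, SE 0.13, adjusted p = 0.00145). Nfil3, a repressor at the same motif, was at 9.39, 15.1 and 19.3 in high livers, against 49.7, 40.3 and 51.5 in low livers (log2 fold change -1.69, SE 0.25, adjusted p = 0.0102). Without high library 2 its adjusted p was 0.0615. Among the high libraries, library 1 had the highest and library 3 the lowest level for Dbp, Tef, Per3, Ciart and Bhlhe41, and the reverse held for Arntl and Nfil3, as the plot of clock genes shows.

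**Figure D3:**
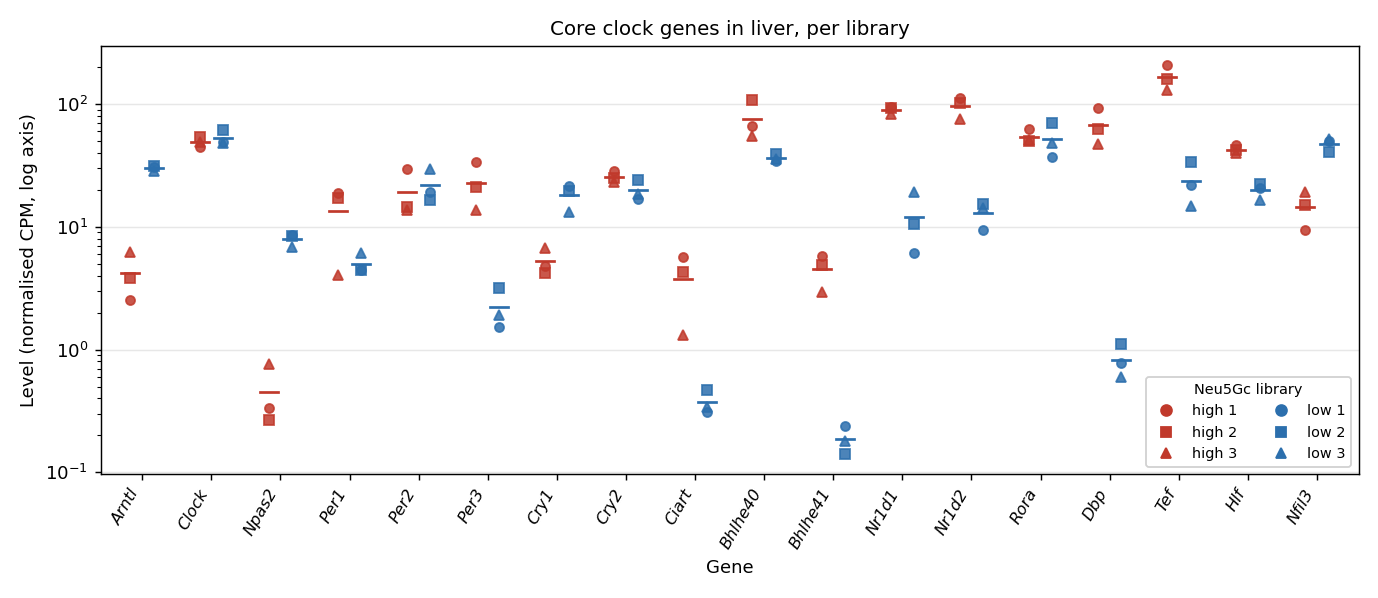
Normalised CPM (log axis) of 18 core clock genes, with 1 point per library, high libraries red and left of low libraries in blue, marker shape for the replicate number, and a bar for the group mean. Dbp, Bhlhe41, Per3, Ciart, Nr1d1, Nr1d2 and Tef stand well above the low libraries, Arntl, Npas2, Cry1 and Nfil3 below them, and Clock, Per2, Cry2 and Rora overlap.

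Promoter windows, the 250 bases before the start on the gene's strand, are shown for 5 called clock genes because they differ in the clock motifs they hold. They come from RefSeq on GRCm38.p6, in which 16 of the 19 genes had a window. Bhlhe41 and Dbp were taken by the smallest p. Next by p came Nr1d2, Npas2 and Hlf, which held none of the motifs searched for and are not printed. Ciart, Per3 and Nfil3 were added after the motif search, so the printed set was partly chosen by motif. Searched on both strands were the E-box CACGTG, the D-box TTATGNAA and the RORE TAGGTCA, the ROR and REV-ERB element, and capitals mark a match. None of these 3 motifs overlapped another in the printed windows.
Bhlhe41: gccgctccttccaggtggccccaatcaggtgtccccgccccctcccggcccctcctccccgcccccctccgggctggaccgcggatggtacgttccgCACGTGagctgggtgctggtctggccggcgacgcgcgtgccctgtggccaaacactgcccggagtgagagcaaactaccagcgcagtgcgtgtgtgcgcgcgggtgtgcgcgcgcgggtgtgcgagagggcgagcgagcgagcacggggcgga
Ciart: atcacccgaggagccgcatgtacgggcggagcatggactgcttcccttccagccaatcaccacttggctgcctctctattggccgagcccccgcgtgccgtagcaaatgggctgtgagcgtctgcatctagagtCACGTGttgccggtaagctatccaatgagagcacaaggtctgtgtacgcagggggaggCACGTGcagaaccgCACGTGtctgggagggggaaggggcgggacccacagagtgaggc
Per3: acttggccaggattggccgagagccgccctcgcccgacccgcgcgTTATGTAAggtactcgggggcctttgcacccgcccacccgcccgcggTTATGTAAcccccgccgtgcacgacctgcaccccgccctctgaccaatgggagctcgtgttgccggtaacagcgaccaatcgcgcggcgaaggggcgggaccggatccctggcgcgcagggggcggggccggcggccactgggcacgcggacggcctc
Nfil3: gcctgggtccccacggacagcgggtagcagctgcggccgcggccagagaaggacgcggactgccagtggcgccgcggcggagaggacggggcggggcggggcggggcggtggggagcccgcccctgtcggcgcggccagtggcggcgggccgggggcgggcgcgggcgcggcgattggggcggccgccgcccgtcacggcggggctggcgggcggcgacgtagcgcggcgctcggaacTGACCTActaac
Dbp: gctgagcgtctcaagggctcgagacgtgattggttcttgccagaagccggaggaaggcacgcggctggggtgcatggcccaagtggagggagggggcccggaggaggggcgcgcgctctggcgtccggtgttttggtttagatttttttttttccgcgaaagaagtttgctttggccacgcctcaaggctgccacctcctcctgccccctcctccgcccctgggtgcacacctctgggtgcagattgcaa

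The windows are chr6:145865421-145865670 (minus strand) for Bhlhe41, chr3:95882229-95882478 (minus) for Ciart, chr4:151044666-151044915 (minus) for Per3, chr13:52981040-52981289 (minus) for Nfil3 and chr7:45704997-45705246 (plus) for Dbp. Bhlhe41 had 1 E-box, beginning 153 bases before the start. Ciart had 3, beginning 116, 58 and 44 bases before the start. Per3 held the D-box at 205 and 158 bases before the start. Nfil3, which fell, held the RORE on the opposite strand 12 bases before the start. Dbp, with the largest rise of the 5, had none of the 3 motifs in this window, which says nothing of sequence outside it. Over all 32851 windows in the table, 6.02% held the E-box, 3.07% the D-box and 2.23% the RORE. Among the 16 clock genes with a window, 5 had an E-box, 2 a D-box and 1 the RORE in any of their windows. These are counts per gene over 21 windows, while the shares above are per window, so they are not alike measures. Of the genes not printed, Cry1, which fell, had an E-box beginning 60 bases before the start. Tef, which rose, had an E-box at 127 or 138 bases, depending on the window. Per1, which was not called, had an E-box and a D-box. The matches are a description of sequence, and binding was not measured.

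Genes known as outputs of the liver clock moved in both directions. Of 32 members tested, 14 were called (43.8%, against 6.47% of all genes), 6 higher and 8 lower. The median log2 fold change of the 32 was 0.14. The counts were 2 higher and 8 lower without both libraries numbered 1. Tubb2a, a beta tubulin, was at 32.5, 37.6 and 49.9 normalised CPM in high livers, against 205, 178 and 193 in low livers (log2 fold change -2.26, SE 0.16, adjusted p = 1.4e-04). Clpx, the unfoldase of a mitochondrial protease, averaged 104 ± 18.9 in high and 295 ± 18.3 in low livers (log2 fold change -1.50, adjusted p = 6.1e-04). Insig2, which holds SREBP proteins in the endoplasmic reticulum, averaged 127 ± 19.4 in high and 277 ± 57.4 in low livers (log2 fold change -1.13, adjusted p = 0.00492). The threonyl-tRNA synthetase gene Tars (log2 fold change -0.95) and Slc45a3 (-1.31) were lower as well. Upp2, a uridine phosphorylase, rose to 405, 349.7 and 258 in high livers, against 112, 137 and 92.7 in low livers (log2 fold change 1.57, SE 0.19, adjusted p = 0.00236).

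Skeletal muscle genes made up 11 of the 12 largest rises among the genes the naming rule covers. Of 30 listed members, all tested, 26 were called higher (86.7%, against 3.15% of all genes) and none lower. The list was chosen with earlier results of these data known, so this count is a description. Some members were near 0 in the low libraries, such as Cmya5 at 0.147 normalised CPM or less. These could pass the filter for low counts only through the high libraries. The median log2 fold change was 4.15, and 28 members had groups that did not overlap, against 28.6% of all genes. The list summed to 356, 320.3 and 424 normalised CPM in the high libraries, against 69.6, 61.6 and 46.7 in the low libraries. The 3 high libraries were thus alike and all above the low ones. With the block 15 were called, without both libraries numbered 1 it was 19, and 15 were called in every fit without 1 library. Acta1, the skeletal muscle actin, was at 37.5, 35.2 and 51.5 in high livers, against 1.66, 0.594 and 0.0398 in low livers. Ckm, the muscle creatine kinase, was at 34.3, 34.6 and 47.8 in high livers, against 2.49, 0.908 and 0.159 in low livers. Within the low group low library 1 was the highest for both genes. The myosin, troponin and creatine kinase genes of this list are known from muscle fibres, and whether muscle tissue came with the high livers or liver cells made this RNA was not tested.

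The muscle genes with the smallest p were low in absolute level. Cmya5, a muscle-specific scaffold protein, was at 4.00, 3.87 and 4.70 normalised CPM in high livers, against 0.147, 0.0873 and 0.0597 in low livers (log2 fold change 5.38, SE 0.30, adjusted p = 3.5e-05). Myh7, the slow myosin heavy chain, averaged 3.26 ± 0.299 in high and 0.121 ± 0.0578 in low livers (log2 fold change 4.71, adjusted p = 1.2e-04). Mylpf, a fast myosin light chain, was at 11, 9.35 and 12 in high livers, against 1.47, 0.89 and 0.637 in low livers (log2 fold change 3.42, SE 0.27, adjusted p = 2.6e-04). Trdn (4.35), Mybpc2 (2.98), Tpm2 (2.04), Tnnc2 (5.4) and Myl1 (4.93) rose on the log2 scale as well. Slc25a4, the ADP/ATP carrier prominent in heart and muscle, averaged 19.6 ± 2.17 in high and 6.12 ± 0.923 in low livers (log2 fold change 1.68, adjusted p = 3.7e-04). Several of the largest rises lost their call under an alternative. Myh2 (log2 fold change 6.22, adjusted p = 0.0255) was at 0.124 with the block and was called without low library 1 but not without any other 1 library (adjusted p = 0.0539 to 0.131). Mb (6.10, 0.0173) was lost with the block (0.115) and without high library 1, high library 2 or low library 2 (0.0524 to 0.0927). Acta1 (5.74, 0.0402), Ckm (5.02, 0.0461) and Tnni2 (4.62, 0.0208) were lost with the block (0.184, 0.198 and 0.11) and without low library 2 or any 1 high library (0.0566 to 0.156). Acta1 also missed without both libraries numbered 1 (0.0543). Tnnt3 (5.23, 0.0481) was called without low library 3 but not without any other 1 library (0.0611 to 0.17). With the block and without both libraries numbered 1 it was at 0.22 and 0.0958. Myh1 (5.28, 0.0255) was lost with the block (0.0838), without high library 1 or 2 or low library 1 or 3 (0.0628 to 0.143) and without both libraries numbered 1 (0.112). Atp2a1 (5.24, 0.00207) was lost with the block alone (0.0529), and Ttn (3.95, 0.0108) with the block (0.0873), without low library 1 (0.0503) and without both libraries numbered 1 (0.0896).

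Among called genes with a mean of at least 5 CPM, the largest falls outside the core clock list included genes of growth factor binding and lipid metabolism. Igfbp1, a liver-secreted binding protein of insulin-like growth factors that insulin represses, was at 11.1, 10.5 and 14.8 normalised CPM in high livers, against 90.5, 78.7 and 91.6 in low livers (log2 fold change -2.84, SE 0.15, adjusted p = 2.4e-05). Ppard (ENSMUSG00000002250), a fatty acid-sensing nuclear receptor, was at 6.52, 5.20 and 6.37 in high livers, against 44.2, 37.6 and 43.7 in low livers (log2 fold change -2.79, SE 0.13, adjusted p = 2.0e-05). The replicates of both genes lay close together, and the groups were far apart. Chka, choline kinase alpha, the first enzyme of phosphatidylcholine synthesis from choline, averaged 31.1 ± 6.83 in high and 148 ± 5.25 in low livers (log2 fold change -2.25, adjusted p = 1.2e-04).

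The cell cycle inhibitor gene Cdkn1a (p21) was at 1.43, 1.95 and 2.52 normalised CPM in high livers, against 15.6, 10.9 and 13.5 in low livers (log2 fold change -2.75, SE 0.22, adjusted p = 2.6e-04). Loxl4, a lysyl oxidase-like enzyme of the matrix, had the largest fall among the genes the naming rule covers, with 1.37, 1.10 and 1.94 in high livers, against 10.7, 18.9 and 17.5 in low livers (log2 fold change -3.42, SE 0.28, adjusted p = 4.9e-04). Clic3, of the chloride intracellular channel family, averaged 2.11 ± 0.332 in high and 17.3 ± 8.66 in low livers (log2 fold change -3.04, adjusted p = 0.00716). Pitpnm1, a membrane-associated phosphatidylinositol transfer protein, averaged 11.4 ± 1.25 in high and 39.3 ± 6.48 in low livers (log2 fold change -1.79, adjusted p = 2.1e-04). Elovl3, an elongase of very long fatty acids, was at 121, 154 and 250.2 in high livers, against 941, 587 and 699.5 in low livers (log2 fold change -2.09, SE 0.32, adjusted p = 0.0179). Its adjusted p was 0.101 without high library 2 and 0.0662 without low library 3. In the other direction, Clec2h, a C-type lectin, was at 24.8, 26.9 and 23.1 in high livers, against 4.42, 4.05 and 3.76 in low livers (log2 fold change 2.61, SE 0.12, adjusted p = 2.0e-05). Mup22, a major urinary protein whose counts are uncertain because near-identical copies exist, was at 33462, 36912 and 34933 in high livers, against 22177, 19817 and 18954 in low livers (log2 fold change 0.79, adjusted p = 3.5e-04). Cebpa, a transcription factor of hepatocyte identity, averaged 408 ± 37.8 in high and 249 ± 18.2 in low livers (log2 fold change 0.71, adjusted p = 0.00489).

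**Figure D4:**
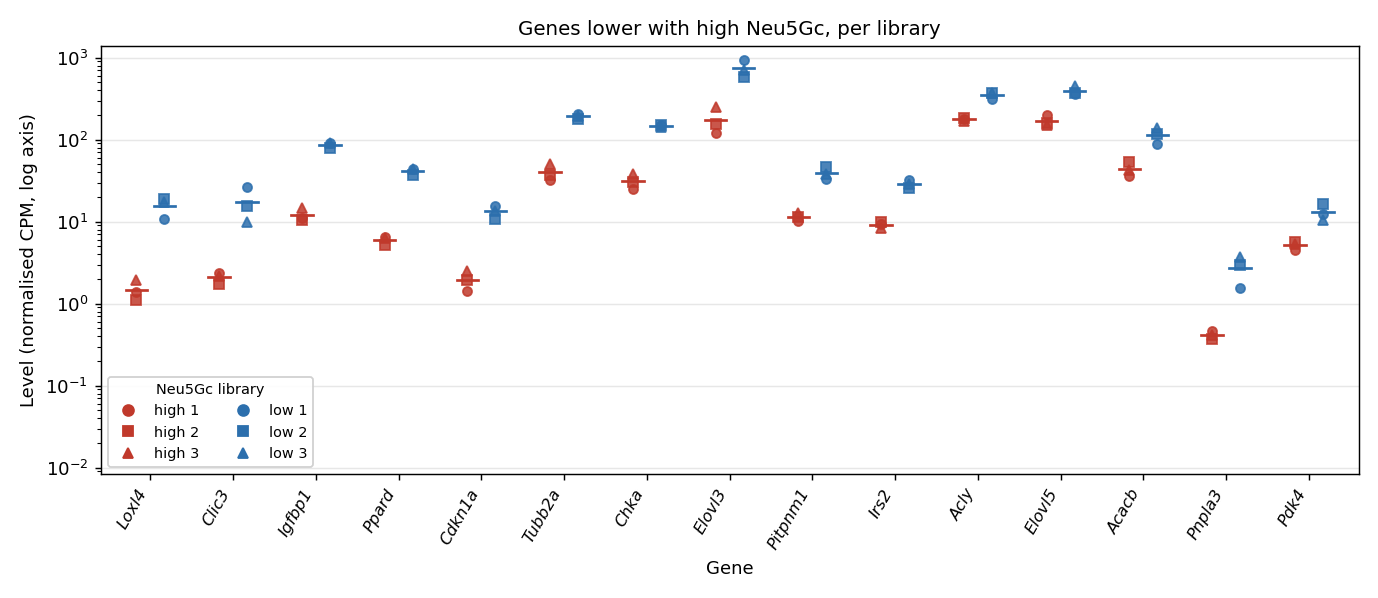
Normalised CPM (log axis) of 9 genes with large falls outside the core clock list and 6 genes of insulin, lipid and glucose metabolism. There is 1 point per library, with high libraries red and left of low libraries in blue. Marker shape gives the replicate number and a bar the group mean. No gene shown has overlapping groups, and among those shown the fold between group means is largest for Loxl4, at 1.1 to 1.94 in high and 10.7 to 18.9 in low livers.

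Genes of fat synthesis fell more often than they rose. Of 25 lipogenesis genes tested, 7 were lower and 2 higher, with a median log2 fold change of -0.20, against 3.32% and 3.15% of all genes. Acly, which makes cytosolic acetyl-CoA from citrate, was at 177, 183 and 169.6 normalised CPM in high livers, against 312, 366 and 371 in low livers (log2 fold change -0.99, SE 0.10, adjusted p = 0.00104). Acss2, which makes acetyl-CoA from acetate, averaged 122 ± 14.0 in high and 238 ± 17.4 in low livers (log2 fold change -0.96, adjusted p = 0.00188). The fatty acid elongase Elovl5 (log2 fold change -1.21), the acetyl-CoA carboxylase Acacb (-1.38) and the lipid droplet protein Pnpla3 (-2.72) were lower too. Srebf1, the gene of the factor that activates this pathway, went the other way, at 300.2, 289 and 206 in high livers, against 152, 168 and 146 in low livers (log2 fold change 0.77, SE 0.15, adjusted p = 0.0174). Its call was lost without high library 1 or 2 or low library 1 or 3 (adjusted p = 0.0548 to 0.0816) and without both libraries numbered 1 (0.118).

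Of 26 genes of cholesterol synthesis and uptake, 8 were lower and 1 higher (34.6%, against 6.47% of all genes). Their median was -0.25, and the block called 5, all lower. It was 2, both lower, without both libraries numbered 1. Pmvk, a kinase of the mevalonate pathway, was at 25.5, 22.1 and 29.8 normalised CPM in high livers, against 52.0, 51.8 and 53.6 in low livers (log2 fold change -1.02, SE 0.12, adjusted p = 0.00145). Lss, lanosterol synthase, averaged 43.6 ± 3.90 in high and 73.7 ± 6.77 in low livers (log2 fold change -0.76, adjusted p = 0.00408). Ebp, a sterol isomerase, averaged 115 ± 4.57 in high and 185 ± 18.0 in low livers (log2 fold change -0.68, adjusted p = 0.00668), with 0.0546 without both libraries numbered 1. Among 29 genes of lipoprotein handling, 2 were higher and 3 lower (17.2%). Tm6sf2, needed to load lipid onto VLDL, averaged 13.2 ± 0.65 in high and 23.5 ± 0.414 in low livers (log2 fold change -0.83, adjusted p = 0.00194).

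Of 37 genes of fatty acid oxidation and ketogenesis, 6 were lower and 1 higher (18.9%, against 6.47% of all genes), with a median of -0.06. Pdk4, a kinase that shuts pyruvate dehydrogenase in fasting, averaged 5.17 ± 0.575 in high and 13.2 ± 3.14 in low livers (log2 fold change -1.35, adjusted p = 0.003). Plin2, a lipid droplet coat protein, averaged 237 ± 31.5 in high and 387 ± 19.6 in low livers (log2 fold change -0.71, adjusted p = 0.00812), with 0.0546 without both libraries numbered 1. Ppara, the nuclear receptor that drives this pathway, was the member that rose, at 76.6 to 109 in the high libraries, against 51.8 to 65.0 in the low libraries (log2 fold change 0.72, SE 0.15, adjusted p = 0.0216). Without high library 1 or 2 or low library 1 or 3 its adjusted p was 0.0655 to 0.0925, and without both libraries numbered 1 it was 0.132. Of 32 genes of glucose metabolism and insulin signalling, 6 were lower and 3 higher (28.1%), with a median of -0.18. Irs2, an insulin receptor substrate, was at 9.38, 9.89 and 8.37 in high livers, against 31.8, 25.7 and 28.6 in low livers (log2 fold change -1.64, SE 0.12, adjusted p = 1.7e-04). Ppp1r3c, which targets a phosphatase to glycogen, averaged 61.7 ± 11.9 in high and 152 ± 37.8 in low livers (log2 fold change -1.30, adjusted p = 0.00765). Pygl, liver glycogen phosphorylase (log2 fold change -0.58), and Pgd of the pentose phosphate pathway (-0.64) were lower, with adjusted p = 0.0618 and 0.0579 without both libraries numbered 1.

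Bile acid, drug and amino acid genes gave mixed counts. Of 29 bile acid genes, 2 were higher and 5 lower (24.1%, against 6.47% of all genes). With the block it was 1 and 3, and without both libraries numbered 1 it was 1 and 0. Slco1b2, a hepatocyte uptake transporter, was at 1492, 1632 and 1242 normalised CPM in high livers, against 747, 839.8 and 783 in low livers (log2 fold change 0.88, SE 0.11, adjusted p = 0.00189). Cyp27a1, a sterol hydroxylase of bile acid synthesis, averaged 378 ± 27.2 in high and 561 ± 33.9 in low livers (log2 fold change -0.57, adjusted p = 0.00872), with 0.108 without both libraries numbered 1. Of 25 drug-metabolizing P450 genes and their reductase, 1 was higher and 3 lower (16%, and 1 and 1 with the block). The gene that rose was Cyp2a5, which oxidizes coumarin, at 556, 449 and 395 in high livers, against 177, 259 and 183 in low livers (log2 fold change 1.18, SE 0.18, adjusted p = 0.00637). Of 35 phase II conjugation genes, 5 were higher and 8 lower (37.1%). With the block it was 4 and 4, and without both libraries numbered 1 it was 4 and 1. The UDP-glucuronosyltransferase Ugt2b38 averaged 48.1 ± 9.42 in high and 20.6 ± 2.67 in low livers (log2 fold change 1.23, adjusted p = 0.0027). The glutathione transferase Gstm2 averaged 47.4 ± 1.48 in high and 79.3 ± 6.31 in low livers (log2 fold change -0.74, adjusted p = 0.00249). Its relative Gstm3 was lower by a like amount (-0.67), with adjusted p = 0.0554 without both libraries numbered 1.

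Of 36 genes of amino acid breakdown and the urea cycle, 3 were lower and 1 higher (11.1%, against 6.47% of all genes). Cbs, the cystathionine synthase that removes homocysteine, was at 342, 342 and 401 normalised CPM in high livers, against 669, 644 and 659 in low livers (log2 fold change -0.86, SE 0.09, adjusted p = 0.00121). Got1, the cytosolic aspartate aminotransferase, averaged 79.3 ± 12.9 in high and 155 ± 18.0 in low livers (log2 fold change -0.97, adjusted p = 0.00487). Tdo2, which opens the tryptophan ring, averaged 1577 ± 36.7 in high and 1055 ± 60 in low livers (log2 fold change 0.58, adjusted p = 0.00253). Without both libraries numbered 1, Got1 and Tdo2 had adjusted p = 0.0507 and 0.0749.

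Most of the plasma protein genes called were lower. Of 34 acute phase genes, 6 were lower and none higher (17.6%, against 6.47% of all genes), with a median of -0.30. Without both libraries numbered 1 it was 2. Itih3, an inter-alpha-trypsin inhibitor heavy chain, was at 803, 697 and 882 normalised CPM in high livers, against 1428, 1534 and 1558 in low livers (log2 fold change -0.92, SE 0.10, adjusted p = 0.00108). Hpx, the heme scavenger hemopexin, averaged 4010.3 ± 334 in high and 5590.4 ± 197 in low livers (log2 fold change -0.48, adjusted p = 0.00641). Hpx missed with the block (0.054), without low library 1 (0.0518) and without both libraries numbered 1 (0.0969). Of 39 complement and coagulation genes, 8 were lower and 1 higher (23.1%). With the block it was 2, both lower, and without both libraries numbered 1 it was 1, lower. C3, the central complement component, was at 4369, 4573 and 4379 in high livers, against 7462, 7808 and 7492 in low livers, with little spread within either group (log2 fold change -0.77, SE 0.06, adjusted p = 1.5e-04). Serping1, the C1 inhibitor, averaged 519 ± 37.8 in high and 766 ± 27.0 in low livers (log2 fold change -0.56, adjusted p = 0.00637), with 0.093 without both libraries numbered 1. Of 38 genes of the unfolded protein and heat shock responses, 5 were lower and 1 higher (15.8%). Without both libraries numbered 1 it was 1, lower. Hspa5 (BiP), the main chaperone of the endoplasmic reticulum, was at 433, 364 and 331 in high livers, against 762, 632 and 832 in low livers (log2 fold change -0.98, SE 0.13, adjusted p = 0.00301). The protein disulfide isomerase Pdia4 (-0.81) and the co-chaperone Stip1 (-0.64) were lower, with adjusted p = 0.062 and 0.0673 without both libraries numbered 1.

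Stellate and cholangiocyte genes were lower more often than the 3.32% of all genes. In bulk RNA, fewer cells of a type and less RNA per cell cannot be told apart. Of 31 stellate cell and matrix genes tested, 11 were lower and 1 higher, with a median of -0.44 (6 and 1 with the block, 4 and 1 without both libraries numbered 1). Col14a1, a fibril-associated collagen, was at 40.6, 34.9 and 36.3 normalised CPM in high livers, against 63.1, 66.3 and 76.0 in low livers (log2 fold change -0.88, SE 0.11, adjusted p = 0.00195). Reln, a stellate cell marker in liver, averaged 34.3 ± 1.30 in high and 58.3 ± 10.3 in low livers (log2 fold change -0.77, adjusted p = 0.00885). The member that rose was Des, desmin, also a muscle protein, which averaged 9.74 ± 3.06 in high and 4.70 ± 0.697 in low livers (log2 fold change 1.05, adjusted p = 0.0252). Without low library 2 or 3 its adjusted p was 0.0669 or 0.102. Of 15 cholangiocyte genes tested, 5 were lower and none higher, with a median of -0.57 (3 with the block, 1 without both libraries numbered 1). The list summed to 511 to 576 normalised CPM in high and 667 to 700.5 in low libraries. The 4 defining cholangiocyte markers summed to 14.3 or less in every library. Most of the level of the list thus came from other members, and a call in it need not be specific to bile ducts. Krt19, the bile duct keratin, was at 1.49, 1 and 1.03 in high livers, against 4.11, 4.15 and 4.28 in low livers (log2 fold change -1.84, SE 0.21, adjusted p = 0.00131).

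Of 28 Kupffer cell and macrophage genes, 6 were lower and 1 higher (25%, against 6.47% of all genes), with a median of -0.28. With the block it was 3 and 1, and without both libraries numbered 1 it was 2 and 0. Adgre1 (F4/80), a macrophage surface receptor, averaged 20.1 ± 3.90 normalised CPM in high and 32.3 ± 1.55 in low livers (log2 fold change -0.69, adjusted p = 0.0198). Without high library 2 or low library 2 or 3 its adjusted p was 0.0523 to 0.0983. Of 26 sinusoidal endothelium genes, 2 were lower (7.69%, near the 6.47% of all genes called). They were Oit3 (log2 fold change -0.69) and Ehd3 (-0.64), the second with adjusted p = 0.0506 without both libraries numbered 1. The median of the 26 was nevertheless -0.27, against 0.003 for all genes, and 1 of them had a positive log2 fold change. Groups did not overlap for 12 of the 26, against 28.6% of all genes. Of 28 lymphocyte and neutrophil genes 1 was called (3.57%, below the share of all genes), Cd4, which was lower, at 1.5 ± 0.102 in high and 2.96 ± 0.305 in low livers (adjusted p = 0.0159). It missed without high library 2 or low library 3 (0.0763 and 0.0746) and without both libraries numbered 1 (0.0603). The 28 lymphocyte and neutrophil genes had a median of -0.26, with 5 positive. Of 23 cytokines and chemokines, 2 were lower (8.7%, near the share of all genes), with a median of -0.25 and 3 positive. Il1b was at 1.56, 1.15 and 1.22 in high livers, against 2.89, 2.97 and 3.96 in low livers (log2 fold change -1.32, SE 0.22, adjusted p = 0.00842). Ccl2 averaged 0.389 ± 0.125 in high and 1.19 ± 0.245 in low livers (log2 fold change -1.60, adjusted p = 0.0221), and missed without high library 1 or 2 or low library 3 (0.0611 to 0.0909) and without both libraries numbered 1 (0.0891). Of 24 antigen presentation genes, 3 were lower (12.5%). They were led by the class I gene H2-Q6 (log2 fold change -0.64, adjusted p = 0.00956), whose counts are uncertain because close copies exist. Of 40 interferon response genes, 1 was higher and 1 lower, a share of 5% against 6.47% of all genes. They were Iigp1 (log2 fold change 0.49, adjusted p = 0.0221) and Stat2 (-0.42, 0.0255), and with the block neither was called (0.0622 and 0.0746). Iigp1 missed without high library 2 or any 1 low library (0.0525 to 0.108), Stat2 without high library 1 or 2 or low library 1 or 3 (0.0712 to 0.112), and both without the libraries numbered 1 (0.0618 and 0.141).

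The genes that handle sialic acid bear on the compound given. Of 32 tested, 3 were higher and 3 lower (18.8%, against 6.47% of all genes), with a median of 0.04. With the block 2 remained, the same 2 as without both libraries numbered 1. Cmah (ENSMUSG00000016756), which makes Neu5Gc, was at 226, 217 and 185 normalised CPM in high livers and at 204, 268 and 228 in low livers, with overlapping groups (log2 fold change -0.16, SE 0.13, adjusted p = 0.514). The sialyltransferase St3gal1, which caps O-glycans, was at 66.8, 76.5 and 69.6 in high livers, against 135, 171 and 147 in low livers (log2 fold change -1.09, SE 0.12, adjusted p = 0.00121). Neu3, a membrane sialidase that acts on gangliosides, was at 1.13, 1.34 and 1.03 in high livers, against 5.03, 3.42 and 3.14 in low livers (log2 fold change -1.73, SE 0.23, adjusted p = 0.00307). These were the 2 calls that held.

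The other 4 calls were small or close to the threshold. Neu1, the lysosomal sialidase, averaged 38.0 ± 1.56 normalised CPM in high and 28.2 ± 0.483 in low livers (log2 fold change 0.43, adjusted p = 0.0225). Amdhd2, an N-acetylglucosamine-6-phosphate deacetylase, averaged 14.5 ± 1.73 in high and 9.55 ± 0.917 in low livers (log2 fold change 0.60, adjusted p = 0.0268). St3gal5, which makes the ganglioside GM3, averaged 58.0 ± 6.83 in high and 42.0 ± 3.81 in low livers (log2 fold change 0.47, adjusted p = 0.0449). Neu2, a cytosolic sialidase, averaged 1.28 ± 0.337 in high and 2.98 ± 1.05 in low livers (log2 fold change -1.22, adjusted p = 0.0488). With the block the 4 were at 0.0757, 0.0655, 0.1 and 0.0623, and without both libraries numbered 1 at 0.116, 0.0913, 0.235 and 0.216. Neu1 missed without high library 2 or low library 1 or 3 (0.0715 to 0.0846), and Amdhd2 without high library 2 or 3 or low library 1 or 3 (0.0577 to 0.107). St3gal5 was called without high library 3 and Neu2 without low library 3, and neither was called without any other 1 library (0.0803 to 0.173 and 0.0934 to 0.124).

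By its title the series concerns genes related to colorectal cancer. Of 73 genes of a colorectal cancer pathway list tested in liver, 2 were higher and 2 lower, a share of 5.48% against 6.47% of all genes. Cdkn1a, described above, was among them. Rac2, a GTPase of blood cells, averaged 5.14 ± 0.354 normalised CPM in high and 11 ± 1.77 in low livers (log2 fold change -1.09, adjusted p = 0.00326). Tgfbr1, a TGF-beta receptor (log2 fold change 0.59, adjusted p = 0.0186), and Pik3r1, a PI3-kinase regulatory subunit (0.59, 0.0406), were higher. Tgfbr1 missed without high library 1 or 2 or low library 1 or 3 (0.0552 to 0.0859), and Pik3r1 without any 1 library but high library 3 (0.0777 to 0.162). They were at 0.139 and 0.151 without both libraries numbered 1. Apc, mutated in all of these mice, was at 39, 28.9 and 31.7 in high livers and at 28.7, 36.3 and 28.1 in low livers (log2 fold change 0.10, SE 0.14, adjusted p = 0.748). Alb, albumin, averaged 66711 ± 8805 in high and 59925 ± 8739.9 in low livers and did not pass (adjusted p = 0.545). Of 40 cell cycle genes, Cdkn1a was the 1 called (2.5%).

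Other lists held no calls, or few calls among few members with a share above the 6.47% of all genes, as the plot of lists shows. No member was called among 64 cytosolic ribosomal protein genes (median -0.11), 41 nuclear respiratory chain genes (median -0.04), 10 erythroid, 6 kidney tubule and 4 gut epithelium genes. Of 13 mitochondrially encoded genes, 2 were called (15.4%). The gene mt-Co3 was lower, at 3963 ± 492 normalised CPM in high and 6771 ± 575 in low livers (log2 fold change -0.77, adjusted p = 0.00237). Its neighbour mt-Atp6 was higher, at 6144 ± 404 in high and 4459.8 ± 149 in low livers (log2 fold change 0.46, adjusted p = 0.00489), but missed with the block (0.0634) and without low library 1 (0.0526). Without both libraries numbered 1, mt-Co3 and mt-Atp6 were at 0.0705 and 0.15. Of 19 pericentral zone genes 3 were lower (15.8%) and of 19 periportal zone genes 3 were lower and 1 higher (21.1%). With the block it was 2 pericentral genes, both lower, and 1 periportal gene, higher.

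**Figure D5:**
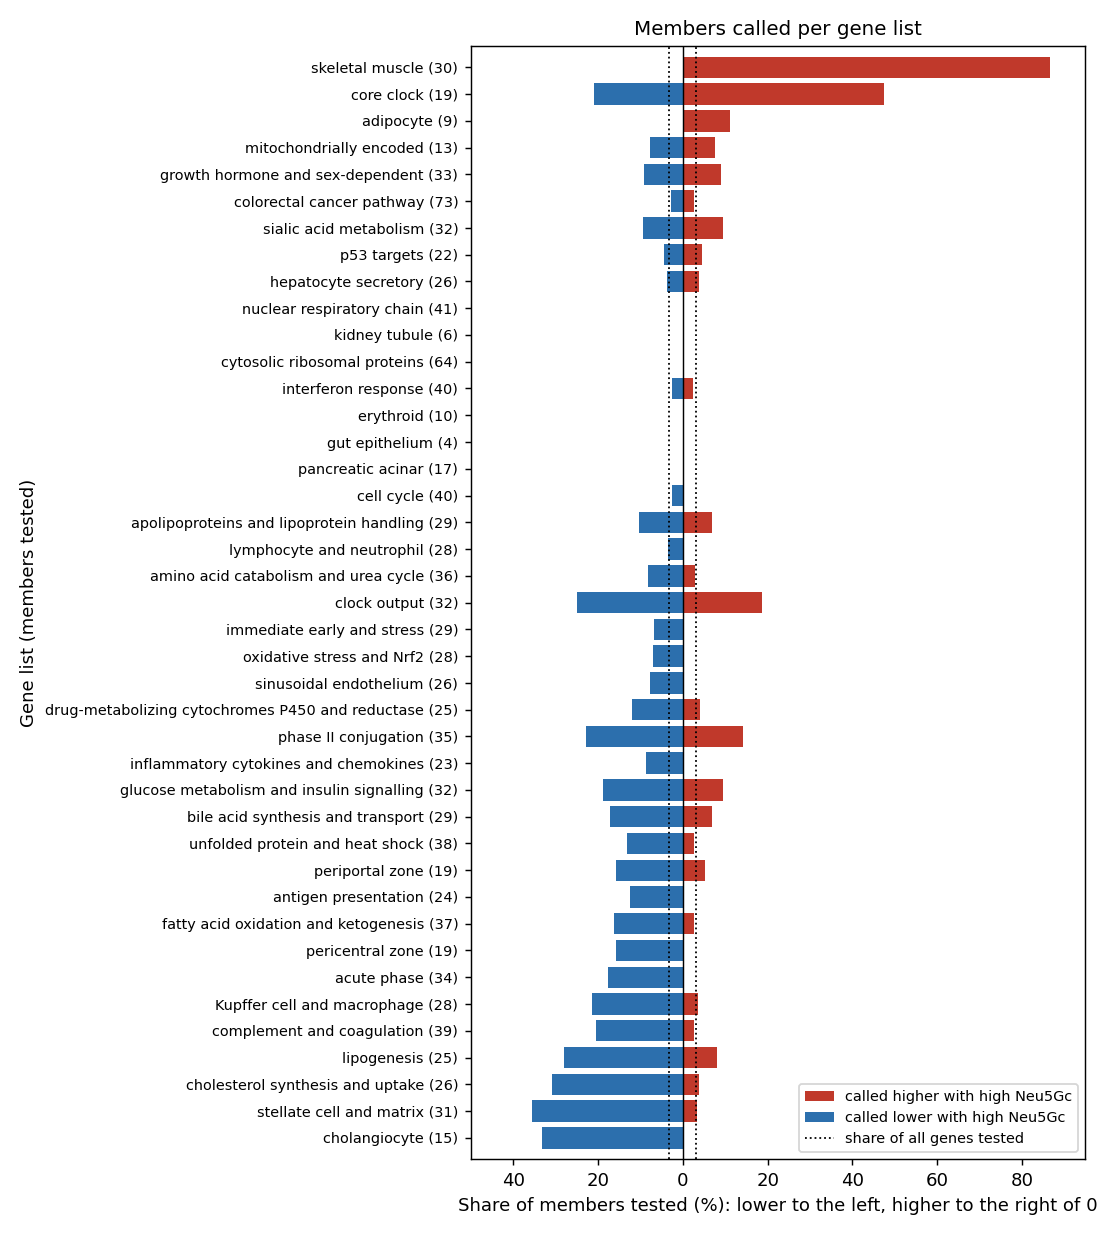
Share of the tested members of each of 41 gene lists that was called higher (red, right of 0) or lower (blue, left of 0) with high Neu5Gc, with the number tested in brackets and dotted lines at the shares of all genes, 3.15% and 3.32%. Skeletal muscle (26 of 30 higher) and the core clock (9 of 19 higher, 4 lower) stand at the top, and cholangiocyte and stellate lists at the bottom.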

How the data were processed

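Liver RNA libraries were made with the NEBNext Ultra kit, per the labels' protocols. The authors deposited estimated counts and TPM per Ensembl gene, on GRCm39 per the submitters' processing notes. No source used here names the aligner, quantifier, annotation or strand setting, so overlapping, antisense and near-identical genes are uncertain. Symbols came from GENCODE M21 and matched 35825 of 36118 IDs (99.2%). The deposited counts, not whole, were rounded. Genes were filtered with filterByExpr, scaled by TMM and tested with edgeR 4.0.16 (robust quasi-likelihood, R 4.3.3), with Benjamini-Hochberg adjustment over 15522 genes and a threshold of 0.05. The deposited TPM values were used for levels per length and for limma 3.58.1 alternatives on log2(TPM + 1). DESeq2 1.42.0 was another alternative. On simulated counts for this comparison (15522 genes, 15340 tested), the test found 57% of 100 genes changed 2-fold and 91% of 100 changed 4-fold. It also made 18 false calls, a larger share of its calls than the threshold of 0.05.

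The members and gene lists were chosen with earlier results of these data known, so counts over lists are descriptions. Named genes were called genes with a mean of at least 5 CPM: the 12 largest rises, the 12 largest falls and the 6 smallest p in each direction. Added were Apc, Cmah, Alb, the core clock genes and up to 6 members with the smallest p of each list, and 3 genes that the rule covers are not reported here. Libraries with the same replicate number deviated together from their group means (correlations 0.55, 0.28 and 0.18 for numbers 1, 2 and 3). Of 6 libraries, 4 correlated best with the library of their own number in the other group. The replicate block, an alternative fit, pairs libraries by these numbers, while the fit that gave the 1004 called genes did not. Only the data, not the labels, give this pairing, and without the acinar genes the correlations were 0.28, 0.09 and 0.05. Promoters were read from RefSeq on GRCm38.p6, and no coordinates were taken from GRCm39.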

Additional observations from a re-analysis of the deposited data

How the results depend on the processing

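Of 1004 genes called (489 higher, 515 lower), the replicate block, which pairs libraries by number, called 630 (306 and 324), 586 of them shared. Leaving out 1 library at a time gave 387 to 935 (190 to 456 higher, 186 to 481 lower). The lowest counts were without low library 3 (387) and high library 2 (388), followed by low library 1 (534) and high library 1 (563). Without both libraries numbered 1, an alternative chosen after seeing the data, 365 were called (185 and 180). DESeq2's Wald test called 1737 (839 and 898), and a fit of all 16 libraries called 446 (227 and 219). Limma called 1625 on log2(TPM + 1) (158 and 1467), 1636 on log2(TPM + 0.1) (159 and 1477) and 724 on log2(TPM + 1) with no TPM filter (154 and 570). After TMM scaling of TPM, also added after seeing the data, 736 were called (317 and 419). At least 2-fold were 315 (190 and 125). The cause of these differences was not tested. Of 105 called genes named in the text, 60 were called with the block, without each library and without both libraries numbered 1. The block changed no call of a named gene beyond those given. The fit of all 16 libraries kept the call of 55 of the 105 and lost that of 50, which are not named here. Among the genes named, signs reversed only for genes that were not called. The log2 fold change of Apc was -0.09, -0.11 and -0.09 in the 3 unscaled TPM settings, -0.09 without both libraries numbered 1 and -0.04 to 0.22 without 1 library at a time. Alb was at -0.05 in the 3 TPM settings. Without 1 library at a time, Clock lay between -0.16 and 0.02 (highest without low library 2). Per2 lay between -0.63 and 0.12, at 0.02 without high library 3. Rora was at -0.08, -0.09 and -0.08 in the TPM settings, -0.12 to 0.35 without 1 library (-0.04 without high library 1) and -0.23 without both numbered 1. On simulated counts with 3 libraries a group, the test found 57% of 2-fold changes and so missed many. The simulation drew libraries independently, without the shared deviation of libraries with the same number. It did not vary the number of libraries, so it does not show what more replication would change.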

Other observations

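The gene families described here were singled out after their values were seen, and they get no test as families. The major urinary protein (Mup) genes, which encode abundant pheromone carriers secreted by the liver, were all higher in fitted log2 fold change: 21 of 21 tested, with a median of 1.30, of which 4 were called, all higher (19.0%, against 3.15% of all genes called higher). With the replicate block 1 of those 4 was called, Mup22, and the same gene was the 1 of them called without both libraries numbered 1 and in every fit without 1 library. Without both libraries numbered 1, 10 of the 21 were called. Their summed level was 133702, 157876 and 196325 normalised CPM in high livers, against 97448, 65753 and 66244 in low livers. Mup genes are near-identical copies, so reads may be split between members, and the sum is the safer value. The list of growth hormone and sex-dependent genes, which itself holds Mup genes, had 3 of 33 members higher and 3 lower. That share was 18.2%, against 6.47% of all genes called. Without both libraries numbered 1 it was 6 higher and 2 lower.

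The alpha and beta tubulin genes were lower in fitted log2 fold change for 11 of 11 tested, with a median of -0.48, and 6 were called (54.5%, against 3.32% of all genes called lower). With the block 3 of the 6 were called, and without both libraries numbered 1 it was Tubb2a alone, which was also the 1 called in every fit without 1 library. Their summed level was 369, 424 and 490.2 normalised CPM in high livers, against 762, 706 and 769 in low livers, so the groups did not overlap. The pancreatic amylase copies (Amy2a) summed to 3089, 0.121 and 9.8 in high livers and to 5839, 0.192 and 0.0796 in low livers, and none was called.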
